A study of Mus musculus with 4 samples.

Results

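*Gem*, *Furin*, *Ermn*, *Rap1gap2*, *Ms4a4c* and *Esm1* are 6 of the 13265 genes in a table of single-cell RNA sequencing (scRNA-seq) of 5080 intestinal T cells. They were chosen by their higher level in cells labelled TGFβR-KO than in TGFβR-WT cells of this same table, as genes less familiar in T cells than the cytokine genes that stand beside them. The contrast between TGFβR-KO and TGFβR-WT therefore describes them and is not tested. All 6 genes were found in the table by symbol, and all 6 passed the minimum of 200 corrected UMIs over all cells that was set for counts of genes.

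The small intestines of C57BL/6 mice aged 7 to 8 months gave the cells, which were sorted as YFP+CD4+. All mice, controls too, carried *Il17a-cre* and a floxed-stop *Rosa26* YFP allele, so that YFP labels any cell with present or past *Il17a* expression. Under TGFβR-KO, Cre removes floxed *Tgfbr2*, under TGFβR-CA it switches on a constitutively active *Tgfbr1* kept behind a floxed stop cassette, and TGFβR-WT mice are littermates with no floxed receptor allele. The labels list 1 TGFβR-KO, 1 TGFβR-CA and 2 TGFβR-WT samples, and by the methods there were 2 runs, each joining TGFβR-WT cells with cells of 1 altered genotype. With *Il17a-cre* as driver, the receptor is altered only once a cell has turned on *Il17a*, and any other lymphocyte that expresses *Il17a* can also be marked.

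TGFβ binds a receptor made of TGFβR2 and TGFβR1 chains, which phosphorylates SMAD proteins that enter the nucleus. In intestinal CD4 T cells this signal takes part in forming TH17 cells and in restraining the TH1 program led by T-BET, with IFNγ as its main product. Furin belongs to the other end of the pathway, since it is the protease that cuts the TGFβ precursor.

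The deposited values give, for each cell, a UMI number corrected by SCTransform to a common depth. The level of a gene is given as its corrected UMIs per 10000, summed over the cells of a group, and a share of cells above 0 is given with its exact Clopper-Pearson 95% interval, which covers counting error only. TGFβR-KO had 2975 cells, TGFβR-CA 1098, and cell names split TGFβR-WT by their ending, with 709 cells in the larger set and 298 in the smaller, neither of which the labels tie to a sample. The median corrected UMI number per cell lay between 3440 and 3984.5 in these 4 sets. With 1 sample labelled TGFβR-KO, no difference between conditions has a replicate check, and a difference of at least 1.5 times was called by size alone, with a set at 0 taken at its floor of 3 counts. Levels of these 3′ UMIs are compared between groups of cells and not between genes. The median log2 ratio of TGFβR-KO to pooled TGFβR-WT was -0.17, over the 7485 genes with at least 200 corrected UMIs that were above 0 in both.

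The 4 sets also parted 2 against 2 along a line that is not the genotype. *Xist*, an RNA made by female cells, was listed at 0 in TGFβR-KO and among the larger set of TGFβR-WT cells, and had a level of 9.86 in the smaller set and 4.59 in TGFβR-CA. In reverse, 5 genes with at least 200 corrected UMIs were above 0 in the first pair of sets and at 0 in the other two, and *Esm1* and *Ms4a4c* are 2 of these 5, beside *Gm3550*, *Ftl1-ps1* and *Gm15987*. Whether a 0 across a whole set was measured cannot be told from the values, and bounds given below take it as measured. *Ddx3y*, a gene of the Y chromosome, was higher in the first pair, at 1.23 in TGFβR-KO and 1.27 in the larger TGFβR-WT set. Its level was 0.288 in the smaller set and 0.509 in TGFβR-CA. The sets thus also differed in markers of sex. Each side of this line holds 1 TGFβR-WT set and 1 altered genotype, as each of the 2 runs did by the methods. The labels tie neither TGFβR-WT set to a run, and whether the line follows the runs was not tested. A ratio to pooled TGFβR-WT, or of TGFβR-CA to the larger set, crosses this line. Each member is therefore given in both TGFβR-WT sets, and a comparison with the larger set alone is given where a count or a call rests on pooling. The targeted genes did not check the labels: *Tgfbr2* had a level of 1.48 in TGFβR-KO, 1.72 and 1.76 in the larger and smaller TGFβR-WT sets and 1.78 in TGFβR-CA, and the sources used here do not say whether the sequenced 3′ end lies in the deleted part. *Tgfbr1* had a level of 0.792 in cells labelled TGFβR-CA, between the 0.367 of the larger and the 2.79 of the smaller TGFβR-WT set, and of 0.219 in TGFβR-KO. Of 8 CD4 T cell markers, 8 were above 0, with a summed level of 87.0 to 105, while the summed level of the 1 listed endothelial marker of 10, *Pecam1*, was 0.551 to 0.670.

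In GENCODE annotation of GRCm38 (mm10), the 6 genes lie on 6 chromosomes and all are protein-coding. *Gem* spans chr4:11704457-11714752 on the plus strand and overlaps no other gene. *Furin* spans chr7:80388585-80405436 on the minus strand, with an antisense gene, *Gm44851*, over 1168 of its bases. *Ermn* spans chr2:58045113-58052864 on the minus strand, and its exons share 237 bases with exons of *Galnt5* on the other strand. *Rap1gap2* spans 227560 bases at chr11:74383356-74610915 on the minus strand. *Ms4a4c* spans chr19:11404770-11427246 on the plus strand, 16306 bases before its paralog *Ms4a4b*. *Esm1*, at chr13:113209659-113218098 on the plus strand, lies whole inside the span of *Gzmk* on the other strand, with 0 shared exon bases.

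Promoter windows of 300 bases, reaching from upstream of a RefSeq start on GRCm38.p6 into the gene, were found for 5 of the 6 members, *Ermn*, *Rap1gap2*, *Ms4a4c*, *Esm1* and *Furin*. The *Ms4a4c* promoter is shown with that of *Ms4a4b* because both genes were higher in TGFβR-KO, and capitals mark the bases that are the same in their best local alignment.
Ms4a4c promoter (chr19:11407411-11407710, plus strand): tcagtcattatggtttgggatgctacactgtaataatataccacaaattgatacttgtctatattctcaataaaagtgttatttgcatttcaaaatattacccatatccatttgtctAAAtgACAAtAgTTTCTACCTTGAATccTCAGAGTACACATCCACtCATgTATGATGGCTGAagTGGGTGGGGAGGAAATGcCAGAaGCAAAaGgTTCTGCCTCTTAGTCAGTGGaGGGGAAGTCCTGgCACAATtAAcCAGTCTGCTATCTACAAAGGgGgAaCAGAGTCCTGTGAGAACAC
Ms4a4b promoter (chr19:11443308-11443607, plus strand): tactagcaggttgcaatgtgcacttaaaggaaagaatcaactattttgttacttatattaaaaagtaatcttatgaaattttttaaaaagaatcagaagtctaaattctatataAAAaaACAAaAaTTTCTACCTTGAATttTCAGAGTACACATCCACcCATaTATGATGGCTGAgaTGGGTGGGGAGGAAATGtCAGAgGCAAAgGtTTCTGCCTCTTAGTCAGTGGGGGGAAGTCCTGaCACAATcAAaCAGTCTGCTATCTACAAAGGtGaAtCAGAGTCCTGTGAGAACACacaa
Over 183 aligned positions the pair shared 162 bases (88.5%), all within the stretch next to the start, and the bases farther upstream fell outside the alignment. The longest identical run in these promoters was 20 bases. Their transcripts shared an identical run of 127 bases, and 1 of 120 bases within their last 500, where a 3′ protocol reads, so the split of reads between *Ms4a4c* and *Ms4a4b* is uncertain.

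Motifs were searched on both strands in these windows: AP-1 (TGANTCA), CRE (TGACGTCA), T-box (GGTGTGA), SMAD (CAGAC) and the CACCC box of KLF factors (CACCC). AP-1 letters were found in 0 of 9 member promoters against 7.81% of 32851 mouse promoters, and CRE letters in 0 of 9 against 1.79%. SMAD letters were in 4 of 9, belonging to *Furin*, *Ms4a4c* and *Rap1gap2*, against 49.6% of all promoters, and CACCC letters in 6 of 9, belonging to the same 3 genes, against 57.5%. T-box letters were in 1 of 9, a *Rap1gap2* promoter, against 3.98%. The windows of *Ermn* and *Esm1* held none of these 5 motifs. One *Furin* promoter and the *Rap1gap2* promoter with the T-box letters, picked after the matches were seen, are shown with all matches in capitals, none of which overlap.
Furin promoter (chr7:80405387-80405686, minus strand): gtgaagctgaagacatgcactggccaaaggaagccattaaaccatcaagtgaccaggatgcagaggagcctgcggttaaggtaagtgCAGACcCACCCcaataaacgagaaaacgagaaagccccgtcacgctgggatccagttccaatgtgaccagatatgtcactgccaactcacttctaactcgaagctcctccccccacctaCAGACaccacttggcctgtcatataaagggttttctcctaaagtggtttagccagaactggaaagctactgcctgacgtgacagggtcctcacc
Rap1gap2 promoter (chr11:74558978-74559277, minus strand): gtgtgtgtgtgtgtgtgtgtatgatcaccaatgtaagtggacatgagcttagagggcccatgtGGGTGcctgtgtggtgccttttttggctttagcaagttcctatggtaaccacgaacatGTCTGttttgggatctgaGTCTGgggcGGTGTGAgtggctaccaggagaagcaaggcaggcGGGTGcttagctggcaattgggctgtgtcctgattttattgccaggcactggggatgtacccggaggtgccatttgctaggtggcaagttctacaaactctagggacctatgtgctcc
The *Furin* window held 3 matches, 2 of SMAD and 1 of CACCC letters. That of *Rap1gap2* held 5, with the T-box letters 102 bases before the start. A match of letters describes the sequence and does not show binding.

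All 6 genes were highest in TGFβR-KO. Each was at least 1.5 times higher in TGFβR-KO than in pooled TGFβR-WT cells, a size that 4.35% of 7490 genes reached, and at least 1.5 times higher than in both TGFβR-WT sets, which 2.94% reached. Since this contrast chose the genes, the count of 6 of 6 is set by the choice. The ranks and the count at 3 times that follow rest on the same contrast and describe the genes only. Among the 7490 genes, the ratio to pooled TGFβR-WT put *Ermn* at rank 8, *Ms4a4c* at 10, *Gem* at 11, *Rap1gap2* at 21, *Esm1* at 54 and *Furin* at 130. At a size of 3 times against both sets, *Gem*, *Ermn*, *Rap1gap2* and *Ms4a4c* remained, 4 of the 6, where 0.694% of all genes did.

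*Gem* encodes a small GTPase of the RGK family, induced by mitogens in T cells and known to restrain voltage-gated calcium channels and the cytoskeleton. Its level was 0.810 in TGFβR-KO, 0.0838 in the larger TGFβR-WT set, 0.0824 in the smaller set and 0.0821 in TGFβR-CA. The last 3 lay close together, and TGFβR-KO stood 9.72 times above pooled TGFβR-WT (counting interval 6.80 to 14.4). A share of 11.3% of TGFβR-KO cells (10.1% to 12.5%) was above 0, against 2.40% (1.40% to 3.81%) and 3.02% (1.39% to 5.66%) in the TGFβR-WT sets and 2.82% (1.93% to 3.98%) in TGFβR-CA. *Gem* is the member for which the TGFβR-WT sets and TGFβR-CA differed least, and TGFβR-CA was 0.986 times pooled TGFβR-WT (0.593 to 1.65).

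*Furin* encodes a proprotein convertase of the Golgi that activates secreted precursors. It was the member with the most corrected UMIs, and its level was 8.24 in TGFβR-KO, 4.15 and 3.51 in the larger and smaller TGFβR-WT sets and 1.996 in TGFβR-CA. The 3 conditions stood in the order TGFβR-KO, TGFβR-WT, TGFβR-CA, and the TGFβR-WT sets lay nearer to each other than to either. TGFβR-KO was 2.09 times pooled TGFβR-WT (1.98 to 2.21), the smallest ratio among the 6, and TGFβR-CA was 0.507 times it (0.466 to 0.552). The share of cells above 0 was 58.1% (56.3% to 59.8%) in TGFβR-KO, 38.9% (35.3% to 42.6%) and 41.6% (36.0% to 47.4%) in the TGFβR-WT sets and 29.8% (27.1% to 32.6%) in TGFβR-CA. *Gm44851*, antisense to *Furin*, had levels of 0.133, 0.0678, 0.0495 and 0.0205 in the same order of sets, so that both genes of the locus fell in the same order. Whether the counting used strand is not given in the sources used here, and reads of this pair cannot then be told apart.

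*Ermn* encodes ermin, an actin-binding protein known from myelinating oligodendrocytes. Its level was 0.452 in TGFβR-KO, 0.0399 within the larger TGFβR-WT set and 0.00456 in TGFβR-CA, and it was listed at 0 in the smaller TGFβR-WT set. In cells, it was above 0 in 279 of 2975 TGFβR-KO cells (9.38%, 8.35% to 10.5%), 6 of 709 in the larger set (0.846%, 0.311% to 1.83%) and 2 of 1098 TGFβR-CA cells (0.182%, 0.0221% to 0.656%). In the smaller set it was found in 0 of 298 cells, which by the floor of 3 counts allows a share of cells with a UMI of up to 1.01% (exact upper bound 1.23%) and does not limit the cells that express it. TGFβR-KO was 11.3 times the larger set (6.11 to 23.8) and at least 18.3-fold higher than the smaller. *Ermn* had the widest gap of the 6 between TGFβR-KO and pooled TGFβR-WT, 16.8 times (9.07 to 35.3). *Galnt5*, which shares exon bases with it, was not analysed here.

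*Rap1gap2* encodes a GTPase-activating protein that switches off RAP1, the small GTPase behind integrin activation. Its level was 0.207 in TGFβR-KO, 0.0519 within the larger TGFβR-WT set and 0.00684 in TGFβR-CA, with 0 of 298 cells in the smaller set. Shares of cells above 0 were 6.59% (5.72% to 7.54%), 1.27% (0.582% to 2.40%) and 0.182% (0.0221% to 0.656%) in the first 3. TGFβR-KO was 3.997 times the larger set (2.29 to 7.62), at least 8.38-fold higher than the smaller set and 5.93 times both pooled (3.40 to 11.3).

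*Ms4a4c* encodes a multi-pass membrane protein of the MS4A family, whose genes stand in a cluster on chromosome 19. Its level was 0.188 in TGFβR-KO and 0.0279 among the larger set of TGFβR-WT cells, and it was listed at 0 in the smaller set and in TGFβR-CA. It was found in 169 of 2975 TGFβR-KO cells (5.68%, 4.88% to 6.57%), in 6 of 709 (0.846%, 0.311% to 1.83%), in 0 of 298 and in 0 of 1098, and the last allows a share of cells with a UMI of up to 0.273% by the floor (exact upper bound 0.335%). TGFβR-KO was 6.74 times the larger set (3.21 to 17.0) and 9.998 times both pooled (4.77 to 25.2). Its paralog *Ms4a4b*, a T cell membrane protein, was also highest in TGFβR-KO, with levels of 10.1 in TGFβR-KO, 4.98 and 3.09 in the TGFβR-WT sets and 3.12 in TGFβR-CA. A further paralog, *Ms4a6b*, had levels of 6.77, 5.46, 4.94 and 4.08 in the same order and did not reach 1.5 times.

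*Esm1* encodes endocan, a secreted dermatan sulfate proteoglycan best known from endothelium. Its level was 0.621 in TGFβR-KO and 0.267 in the larger TGFβR-WT set, and it was listed at 0 in the smaller TGFβR-WT set and in TGFβR-CA. The shares were 14.8% (13.5% to 16.1%) in TGFβR-KO, 6.77% (5.03% to 8.88%) in the larger set, and 0 of 298 and 0 of 1098 cells in the others. At the level of the larger set, the smaller set would hold 32.4 corrected UMIs of *Esm1* and TGFβR-CA 117, so the smaller set differs from the larger far beyond counting error. For *Ermn*, *Rap1gap2* and *Ms4a4c* the same figures in the smaller set were 4.84, 6.29 and 3.39. TGFβR-KO was 2.32 times the larger set (1.81 to 3.03) and 3.45 times both pooled (2.68 to 4.50), so pooling raised the *Esm1* ratio by joining a set at 0. Why *Esm1* parted the sets was not tested. Genotype, run, set and markers of sex cannot be told apart for this gene, outside the comparison of TGFβR-KO with the larger set.

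**Figure D1:**
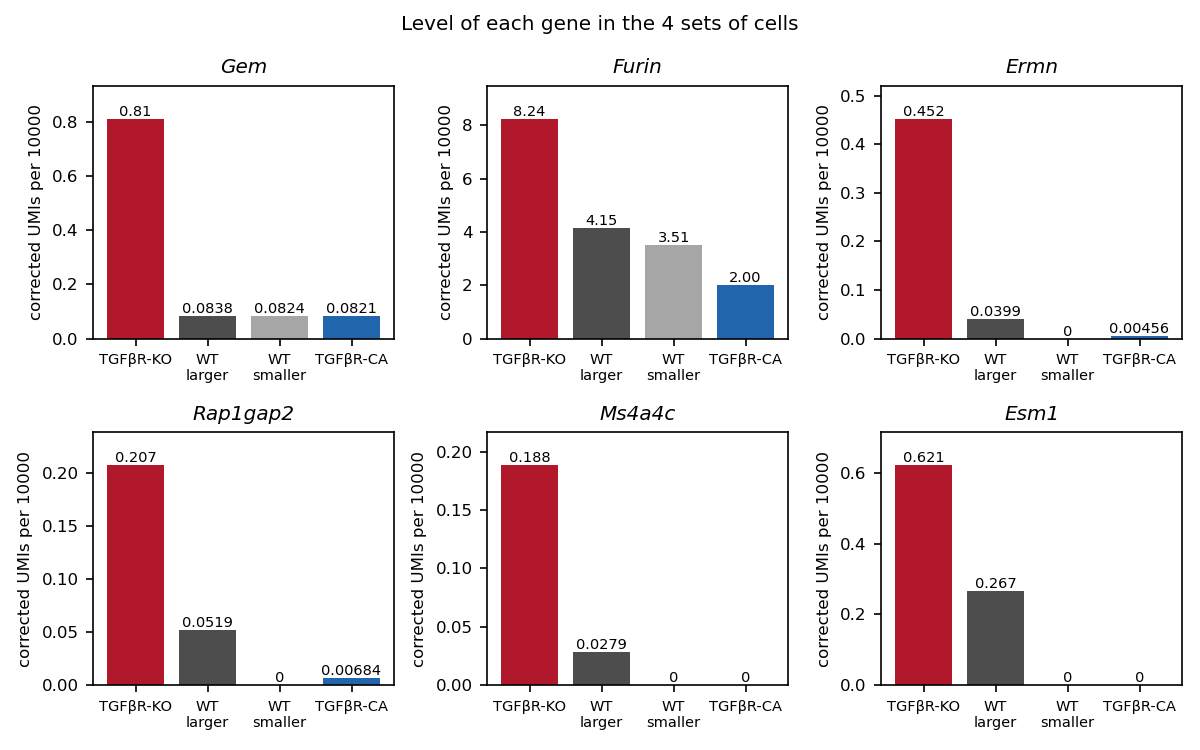
Level of each gene in corrected UMIs per 10000 (bars from 0, a scale of its own for each gene) in TGFβR-KO, in both TGFβR-WT sets and in TGFβR-CA, each bar 1 set of cells with no replicate error. TGFβR-KO is the highest bar for all 6 genes, from 0.188 for *Ms4a4c* to 8.24 for *Furin*, and 4 genes are at 0 in the smaller TGFβR-WT set.

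*Gzmk*, whose span holds *Esm1*, encodes a granzyme. It was listed at 0 in both TGFβR-WT sets and in TGFβR-CA and had a level of 0.0462 in TGFβR-KO, highest in the CTL cluster at 0.331, the cluster where *Esm1* was lowest at 0.223. Both genes were above 0 in 5 of the 440 TGFβR-KO cells with *Esm1*. With so few cells of *Gzmk*, 39 in all, this number says nothing of whether the genes keep to different cells.

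Whether TGFβR-CA cells had lower levels of the members, and by how much, rested on which TGFβR-WT cells they were set against. Against pooled TGFβR-WT, 5 of the 6 members were at least 1.5 times lower in TGFβR-CA, all but *Gem*, where 7.21% of all genes were. Against both TGFβR-WT sets taken singly the count was 1 of 6, *Furin*, where 2.75% of all genes were. *Furin* was 0.482 times the larger (0.440 to 0.527) and 0.569 times the smaller set (0.506 to 0.640). *Ermn* in TGFβR-CA rested on 2 corrected UMIs and was 0.114 times the larger set (0.0122 to 0.537), and *Rap1gap2* on 3, at 0.132 times (0.0241 to 0.480). With the listed 0 taken as a measured 0, *Ms4a4c* was at least 4.08-fold lower and *Esm1* at least 39.1-fold lower than in the larger set. No ratio to the smaller set can be given for these 4 genes, since both groups were at or under the floor. The larger TGFβR-WT set was at least 1.5 times higher than the smaller for 3 of 6 members, *Ermn*, *Rap1gap2* and *Esm1*, against 11.8% of all genes, so the spread between the TGFβR-WT sets was itself of this size.

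Where in TGFβR-KO the genes were found separated them into different patterns. The deposited table names 8 clusters, Tumorigenic, Pre-tumorigenic, CTL, Migratory, Activated, Cycling, GC-TFH and TR-TFH, and in TGFβR-KO the Tumorigenic cluster held 361 cells and the Pre-tumorigenic cluster 230, against 5 and 79 of TGFβR-WT. Clusters were formed from these same values, so levels between clusters are a description. The level in Tumorigenic was at least 1.5 times that in the other TGFβR-KO clusters for 5 of 6 members, all but *Esm1*, where 6.42% of all genes were. For Migratory the count was 2 of 6, *Rap1gap2* and *Esm1*, where 3.48% of all genes were. Tumorigenic made up 12.1% of the TGFβR-KO set but 0.497% of pooled TGFβR-WT, and Migratory 27.9% but 8.84%. Choosing members by a higher level in TGFβR-KO thus favours genes high in these clusters. Both counts are in part set by that choice and cannot be weighed against the shares of all genes.

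*Gem* was the most concentrated member. Its level was 4.31 in Tumorigenic and 2.11 in Pre-tumorigenic, 0.589 in Cycling, 0.397 in CTL, and between 0.0311 (TR-TFH) and 0.180 (Activated) in the other 4. The Tumorigenic and Pre-tumorigenic clusters, 19.9% of TGFβR-KO cells, held 85.3% of its corrected UMIs. In Tumorigenic, 46.8% of cells were above 0 (41.6% to 52.1%), against 1.16% in TR-TFH (0.425% to 2.50%) of the same library, with medians of 3940 and 3575 corrected UMIs per cell. The share in Tumorigenic was thus far above what TR-TFH cells showed at a like corrected depth. SCTransform sets that depth, so the raw depth of the 2 clusters was not compared.

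*Furin* was likewise highest in Tumorigenic, then in Pre-tumorigenic. Its level was 23.6 in Tumorigenic, 15.7 in Pre-tumorigenic, 11.4 in Activated, 8.22 in CTL and 7.71 in Cycling, and 0.949 in TR-TFH. It was above 0 in 91.4% of Tumorigenic cells (88.0% to 94.1%), and 35.5% of these cells had 10 or more corrected UMIs against 0.193% in TR-TFH. The antisense *Gm44851* was likewise highest in Tumorigenic, at 0.411, and at 0.0104 in TR-TFH.

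*Ermn* had a level of 1.61 in Tumorigenic, with 28.3% of cells above 0 (23.7% to 33.2%), then 0.651 in Cycling, 0.425 in Pre-tumorigenic, 0.381 in Migratory and 0.0104 in TR-TFH. Unlike *Gem*, it was not raised in Pre-tumorigenic above Migratory by its share of cells, 9.13% (5.74% to 13.6%) and 9.51% (7.60% to 11.7%). TR-TFH held 2 cells of 519.

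*Rap1gap2* was spread over Tumorigenic (0.397), Migratory (0.375) and CTL (0.289), where 12.5%, 12.5% and 7.79% of cells were above 0. It was all but missing from TR-TFH (0.0104) and GC-TFH (0.0244), with 2 and 3 cells. Migratory, 27.9% of TGFβR-KO cells, held 51.7% of its corrected UMIs.

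*Ms4a4c* ran from 0.375 in Tumorigenic and 0.273 in CTL to 0.0459 in Pre-tumorigenic, where 4 of 230 cells had it. *Ms4a4b* had another order, highest in CTL at 17.8 and at 8.43 in Tumorigenic. The ratio of Tumorigenic to the other clusters was 2.32 for *Ms4a4c* and 0.813 for *Ms4a4b*, so the 2 paralogs were not in a fixed proportion across clusters.

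*Esm1* had its highest level in Migratory, 1.06, with 25.6% of cells above 0 (22.7% to 28.7%), and lay between 0.223 and 0.670 in the other 7 clusters. It was the member found most evenly, and the only one of the 6 not higher in Tumorigenic (0.481) than in the rest. *Gm15987*, one of the genes that part the sets as *Esm1* does, was also highest in Migratory, at 1.16, and next in Activated, at 1.08.

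**Figure D2:**
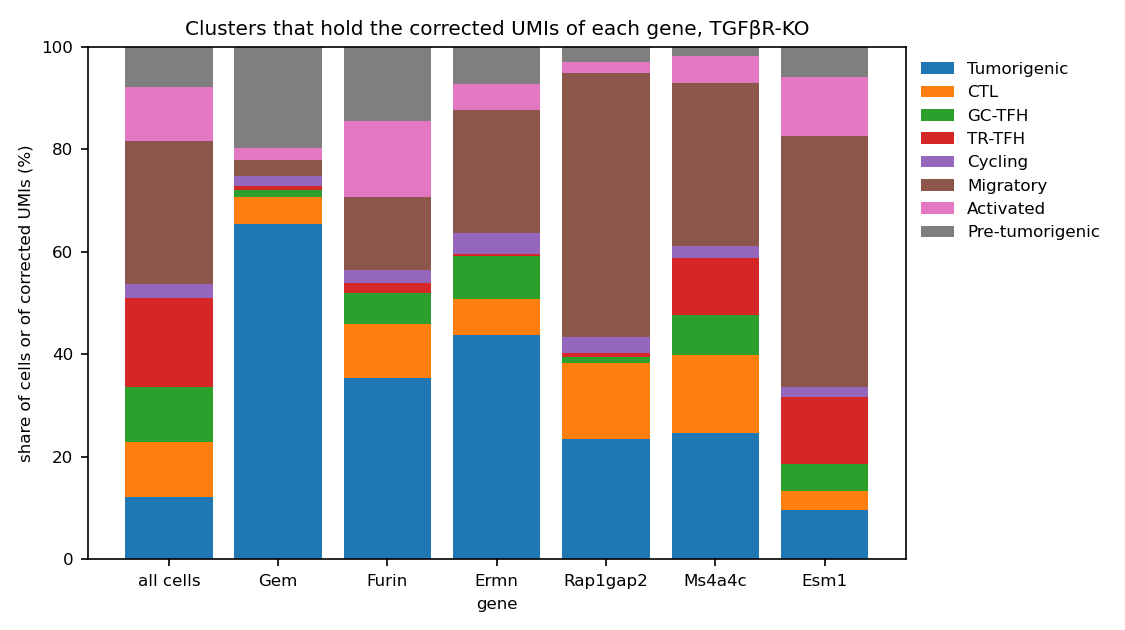
Share (in percent) of TGFβR-KO cells (left bar) and of the corrected UMIs of each gene (other bars) by deposited cluster name, each bar adding to the whole. Tumorigenic cells, 12.1% of the cells, hold 65.5% of *Gem*, 43.7% of *Ermn* and 35.3% of *Furin*, while Migratory cells hold 51.7% of *Rap1gap2* and 48.9% of *Esm1*.

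Most positive cells had few corrected UMIs. Among TGFβR-KO cells above 0, 83.2% had exactly 1 for *Rap1gap2*, 79.9% for *Ms4a4c*, 66.4% for *Esm1*, 57.3% for *Ermn* and 54.0% for *Gem*, against 27.9% for *Furin*. A cell at 0 is thus not a cell without the gene, above all for *Rap1gap2* and *Ms4a4c*. When each cell was drawn down to 2900 corrected UMIs, the expected share of cells with *Gem* was 9.53% in TGFβR-KO and 2.07% in TGFβR-WT, and that with *Ermn* 7.71% and 0.521%. This evens out the corrected numbers and does not check raw depth.

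The cluster mix differed between conditions, as Tumorigenic, CTL and Migratory took 12.1%, 10.8% and 27.9% of TGFβR-KO cells and 0.497%, 1.29% and 8.84% of TGFβR-WT cells. The ratio was therefore also taken over the 6 clusters with at least 20 cells in both conditions, each weighted as in TGFβR-WT. Given the same weights, it was 8.22 for *Ermn*, 6.57 for *Ms4a4c*, 3.33 for *Gem*, 2.84 for *Esm1*, 2.68 for *Rap1gap2* and 1.24 for *Furin*. All 6 stayed above 1 and *Furin* fell under 1.5, with a TGFβR-WT cluster at 0 entered as 0 and not at its floor. At the floor, the ratio of a gene with such a cluster would be lower, by an amount not computed. No interval was computed for these ratios. Pooled TGFβR-WT held only 10 corrected UMIs of *Ermn*, 7 of *Ms4a4c* and 13 of *Rap1gap2* over all its clusters, so their size and order are uncertain. *Gem* lost the most in proportion, from 9.72, and *Esm1* the least, from 3.45. With the larger TGFβR-WT set alone the same ratios were 5.54, 4.61, 2.39, 1.96, 1.98 and 1.08 in that order of genes. Leaving out Tumorigenic and CTL cells without reweighting gave 11.7 for *Ermn*, 7.65 for *Ms4a4c*, 6.73 for *Rap1gap2*, 3.88 for *Gem*, 3.80 for *Esm1* and 1.503 for *Furin*.

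**Figure D3:**
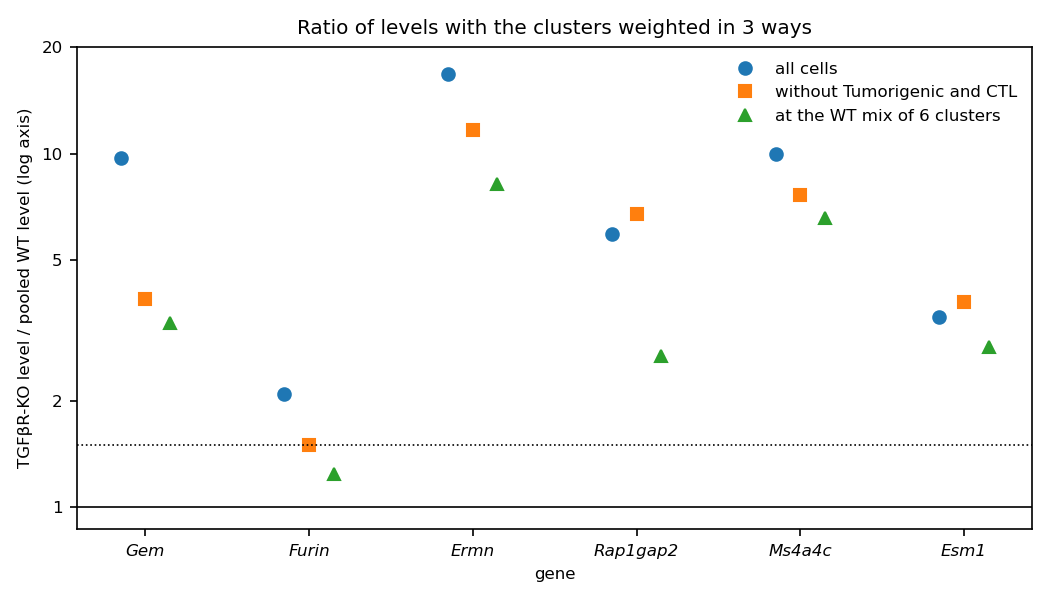
Ratio of the TGFβR-KO level to the pooled TGFβR-WT level (log axis) for each gene over all cells (circles), without Tumorigenic and CTL cells (squares) and at the TGFβR-WT mix of 6 clusters (triangles), with lines at 1 and, dotted, at 1.5. *Gem* drops from 9.72 to 3.33 and *Furin* from 2.09 to 1.24, while *Esm1* stays between 2.84 and 3.80.

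Within single clusters, with a group at 0 taken at its floor of 3 counts, *Esm1* had a higher level in TGFβR-KO than in pooled TGFβR-WT in 6 of 6 clusters, *Ermn* and *Ms4a4c* in 5, *Gem* and *Furin* in 4 and *Rap1gap2* in 3. Against the larger TGFβR-WT set alone the counts were 6 for *Esm1*, 5 for *Ermn*, 4 for *Ms4a4c* and *Furin*, 3 for *Gem* and 2 for *Rap1gap2*. In the clusters left over, the TGFβR-KO level was below that of TGFβR-WT or below a floor, as for *Rap1gap2* in TR-TFH, where TGFβR-KO had 2 corrected UMIs and TGFβR-WT 0.

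For counts of members past 1.5 times, a member entered only where TGFβR-KO and TGFβR-WT together held at least 20 of its corrected UMIs in that cluster. The share of all genes beside each count took the genes under the same limit, from 3872 in Cycling to 8454 in TR-TFH. A high TGFβR-KO level most often met that limit, so these counts describe and support nothing. In Pre-tumorigenic, 4 of 4 such members were at least 1.5 times higher in TGFβR-KO than in pooled TGFβR-WT (*Gem*, *Furin*, *Ermn* and *Esm1*), where 13.4% of all genes were, and 3 of 4, without *Esm1*, against the larger set alone, where 19.5% were. *Gem* was 10.3 times higher there (4.65 to 28.5), at 2.11 against 0.205, and *Furin* 1.88 times (1.64 to 2.16), at 15.7 against 8.33. *Esm1* was 4.71 times the pooled level on 3 corrected UMIs of TGFβR-WT (1.51 to 23.8), and 1.46 times (0.468 to 7.39) that of the larger set.

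In Migratory, 4 of 6 were so (*Ermn*, *Rap1gap2*, *Ms4a4c* and *Esm1*), where 10.4% of all genes were, and against the larger set 3 of 6, without *Rap1gap2*, where 12.5% were. *Esm1* was 3.27 times the pooled level (1.81 to 6.61) and 2.62 times (1.44 to 5.29) that of the larger set. *Rap1gap2* was 1.58 times the pooled level (0.780 to 3.75) and 1.27 times (0.624 to 3.003) that of the larger set, and both intervals hold 1. *Ms4a4c* was at least 2.37-fold higher than pooled TGFβR-WT and at least 1.90-fold higher than the larger set.

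In GC-TFH the count was 3 of 4 (*Furin*, *Ermn* and *Esm1*), where 7.09% of all genes were, and 2 of 4 against the larger set, without *Furin* at 1.45 times (1.21 to 1.73), where 8.59% were. In TR-TFH it was 2 of 3 (*Ms4a4c* and *Esm1*), where 4.35% were, and 1 of 3 against the larger set, *Ms4a4c*, where 5.11% were. *Esm1* in TR-TFH was 2.16 times the pooled level (1.46 to 3.25) and 1.46 times (0.990 to 2.20) that of the larger set, which falls short of the size. *Ms4a4c* was 3.44 times the pooled level (1.37 to 10.3) and 2.33 times (0.927 to 6.96) that of the larger set. In Cycling 2 of 2 were so (*Furin* and *Ermn*) against both, where 16.9% of all genes were for pooled TGFβR-WT and 17.8% for the larger set.

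Activated cells differed from this. There 2 of 4 members were at least 1.5 times higher in TGFβR-KO (*Ermn* and *Esm1*), where 9.64% of all genes were, and the same 2 against the larger set, where 11.4% were, while *Gem* was 0.666 times TGFβR-WT (0.316 to 1.48) and *Furin* 0.874 times (0.793 to 0.965). The *Furin* level of 11.4 in TGFβR-KO lay between the 15.2 of the larger and the 7.57 of the smaller TGFβR-WT set. In TR-TFH, *Furin* was 0.832 times TGFβR-WT (0.675 to 1.03). In these 2 clusters the *Furin* level was thus not higher in TGFβR-KO than in pooled TGFβR-WT, although in Activated it was 1.51 times that of the smaller set (1.23 to 1.89).

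**Figure D4:**
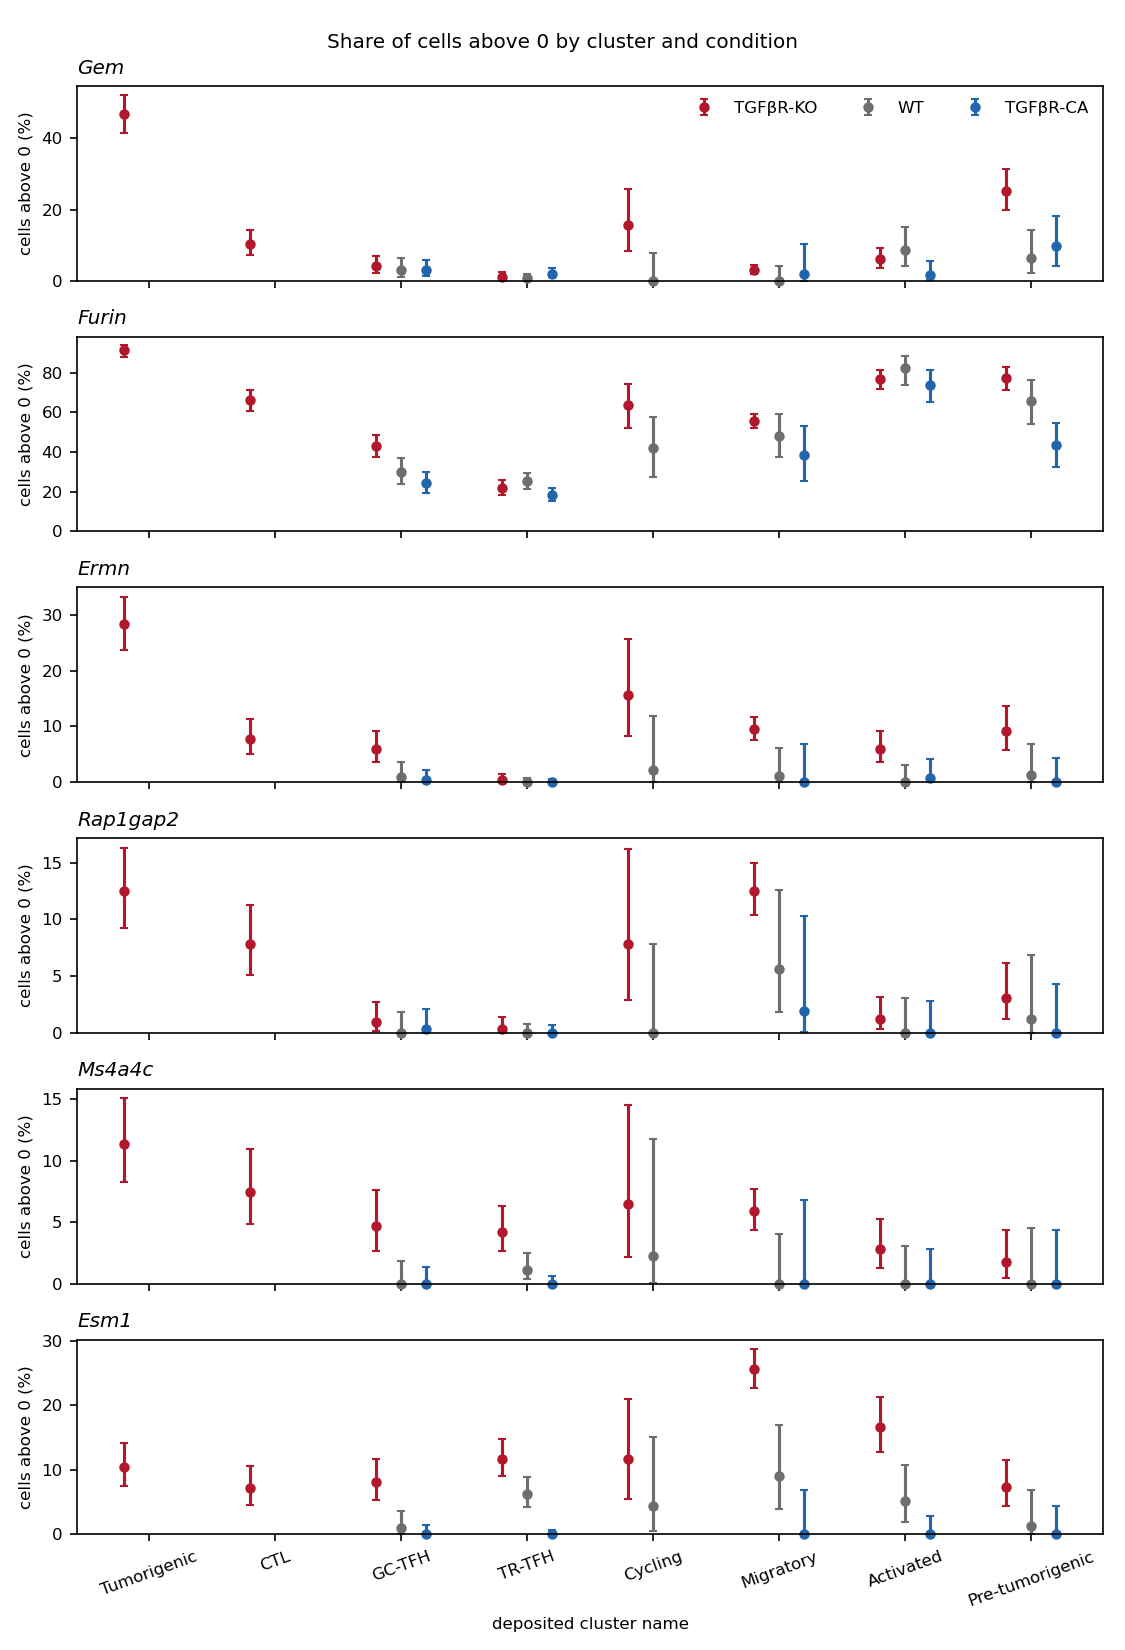
Share of cells above 0 (percent, points) with exact 95% Clopper-Pearson intervals (bars, counting error only) by deposited cluster for TGFβR-KO, pooled TGFβR-WT and TGFβR-CA, with no point for a group of fewer than 20 cells. *Gem* stands out in Tumorigenic (46.8%) and Pre-tumorigenic (25.2%), *Esm1* in Migratory (25.6%), and TGFβR-KO and TGFβR-WT points for *Furin* lie close in Activated and TR-TFH.

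Some single cells held more than 1 member. At least 1 of the 5 rarer members, all but *Furin*, was above 0 in 37.3% of TGFβR-KO cells, 11.7% of cells in the larger and 3.02% in the smaller TGFβR-WT set and 3.097% of TGFβR-CA cells. In the Tumorigenic cluster of TGFβR-KO the share was 71.7%, and 29.1% of these cells had 2 or more, against 0.771% in TR-TFH. Such shares rise with the share of cells that hold each single member, and no value expected from independent genes was computed. They thus do not show that the members keep to the same cells. Within Tumorigenic cells, *Gem* was above 0 in 55.9% of the 102 cells with *Ermn* (45.7% to 65.7%) and in 43.2% of the 259 without (37.1% to 49.5%), and these intervals overlap. Where *Esm1* was above 0, *Ermn* was less frequent, in 4 of 38 cells (10.5%, 2.94% to 24.8%), than where it was not, in 98 of 323 (30.3%, 25.4% to 35.7%). *Gem* was found in 53.9% of the 217 Tumorigenic cells with *Ifng* (47.0% to 60.7%) and in 36.1% of the 144 without (28.3% to 44.5%). *Furin* went the other way, 88.0% (82.9% to 92.0%) and 96.5% (92.1% to 98.9%). These pairs were singled out after their values were seen, cells of 1 library are not replicates, and the median corrected UMI number was 3881 with and 4024 without *Ifng*.

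By level across 23 groups of at least 20 cells (cluster by set), the 3 genes most like each member, of 7490, were found by Pearson's correlation of log2(level + 0.1). These groups share libraries and depth, so the values are descriptions. With a pseudocount of 0.5 in place of 0.1, 12 of the 18 genes named here stayed among the 3, and *Bhlhe40*, *Snx18*, *Adam8*, *Chsy1*, *Ern1* and, for *Ms4a4c*, *Ermn* did not. *Gem* was closest to *Bhlhe40* (r = 0.88), a transcription factor of cytokine-producing T cells, then to *Got1* (0.88) and *Snx18* (0.88). For *Furin* they were *Ifng* (0.91), *Gcnt2* (0.89) and *Adam8* (0.89). *Ermn* was closest to *Chsy1* (0.86), *Irak1bp1* (0.84) and *Ern1* (0.83). *Rap1gap2* was closest to *Adgre5* (0.85), *S100a4* (0.85) and *Klf2* (0.82), the last a factor of migrating T cells. *Ms4a4c* was closest to *Serpinb9* (0.84), *Ccl5* (0.83) and *Ermn* (0.81). *Esm1* stood apart, with *Gm3550* (0.92), *Rpl13a-ps1* (0.90) and the ribosomal protein gene *Rps21* (0.89), genes of which *Gm3550* is at 0 in the same 2 sets. Among the members, r ran from 0.30 (*Gem* and *Esm1*) to 0.81 (*Ermn* and *Ms4a4c*).

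Families of the members moved in part. Of the RGK GTPases, 2 of 2 with at least 200 corrected UMIs were at least 1.5 times higher in TGFβR-KO than in both TGFβR-WT sets, *Gem* and *Rrad* (0.442 against 0.164 and 0.247). Of 16 genes of the RAP1 switch and integrin activation, 2 were, *Rap1gap2* and *Rasgrp2* (0.555 against 0.311 and 0.214), which encodes an activator of RAP1, and the median log2 ratio of the list was -0.10. Of 6 ERM proteins and linkers only *Ermn* was, and the list's median was -0.19. Of 5 MS4A genes 2 were, *Ms4a4b* and *Ms4a4c*. Of 4 proprotein convertases 2 were, *Furin* and *Pcsk1* (0.203 against 0.0519 and 0.0577), while *Pcsk7* had 0.136 against 0.128 and 0.148. Among 5 substrates cut by furin none was higher and *Igf1r*, the receptor of insulin-like growth factor, was lower (1.003 against 2.18 and 2.07). Of 2 secreted proteoglycans of the kind of endocan, *Esm1* was. Each list but that of furin substrates holds the member it was built around, whose call was set by the choice of the genes. Only the genes other than members can be read beside the 2.94% of all genes given above.

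Among genes of TH1 function and T cell activation, most of the former and fewer of the latter reached the size. Over all 7490 genes, 220 (2.94%) were at least 1.5 times higher than in both TGFβR-WT sets and 407 lower. The lists were chosen with earlier results of these data known, so their counts are descriptions. Of 14 TH1 genes, 9 were at least 1.5 times higher than in both TGFβR-WT sets and 0 lower, with a median log2 ratio of 2.19. *Ifng* had a level of 4.26 against 0.571 and 0.709, the chemokine gene *Ccl5* 19.6 against 1.01 and 1.13, *Ccl4* 1.10 against 0.0120 and 0.0247, and *Csf2*, which encodes GM-CSF, 0.410 against 0.00399 and 0. Of 16 T cell activation genes 7 were higher and 0 lower, with a median of 0.47, among them *Nr4a1* (2.09 against 0.459 and 0.412), *Tnfaip3* (3.56 against 0.758 and 1.13), *Crem* (0.397 against 0.124 and 0.0824) and *Nr4a2* (0.203 against 0 and 0). The other 9 did not reach it, and the early response genes *Egr1* (1.60 against 2.45 and 1.62) and *Egr2* (0.226 against 0.339 and 0.387) had their lowest level of these 3 sets in TGFβR-KO. Of 8 interferon-stimulated genes with enough corrected UMIs 3 were, *Isg20* (0.476 against 0.239 and 0.173), *Gbp2* (0.536 against 0.255 and 0.330) and *Bst2* (0.778 against 0.503 and 0.503), with a median of 0.49. The cluster mix differed between the conditions as given above, and its part in these values was not tested.

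No summed level of markers of other cells was highest in TGFβR-KO. Given for TGFβR-KO, both TGFβR-WT sets (the larger first) and TGFβR-CA, the summed level was 0.0610, 0.0519, 0.206 and 0.0479 for CD8 and γδ T cell genes (3 of 5 above 0, *Tcrg-C1* and *Tcrg-C2* at 0), 0.209, 0.315, 0.231 and 0.244 for NK and innate lymphoid genes, and 1.89, 1.93, 2.22 and 1.91 for myeloid genes. B and plasma cell genes summed to 1.21, 2.65, 1.26 and 2.40, with *Jchain* higher (0.551 against 0.291 and 0.181) and *Ighm* lower (0.566 against 2.08 and 1.06) in TGFβR-KO, and epithelial genes (7 of 8 above 0, *Cdh1* at 0) to 0.172, 0.172, 0.305 and 0.317, with *Krt18* lower (0.0479 against 0.104 and 0.214).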

How the data were processed

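scRNA-seq was done with a 10x 3′ kit on sorted YFP+CD4+ cells. Per the labels, the authors used Cell Ranger 3.1.0, Seurat and mm10. Their methods kept cells with 1000 to 5000 features and under 10% mitochondrial expression, normalised with SCTransform, integrated the data and clustered it, and left out γδ T and epithelial cells. No doublet caller is named in the sources used here. The authors deposited, for each gene and cell, a natural log of the corrected UMI number plus 1. Undoing the log gave whole numbers within 1e-06, but these are corrected values and not raw reads, so no count model was fitted.

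Cells were grouped by name prefix, with R: taken as TGFβR-KO, and clusters are the deposited names. TGFβR-WT cells with 2 name suffixes were kept as 2 sets. The total was 11479720 corrected UMIs in TGFβR-KO, 2506375 and 1213190 in the larger and smaller TGFβR-WT sets and 4382832 in TGFβR-CA. Between 1 and 15 cells of a set had a barcode found in another set. No test was run between conditions, since TGFβR-KO and TGFβR-CA are 1 sample each. Intervals of ratios and shares are exact 95% intervals of counts and cover counting error only. Those of ratios are binomial and take each corrected UMI as independent. Corrected UMIs gather in single cells, up to 94 of *Furin* in 1 TGFβR-KO cell, so these intervals can be too narrow.

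The genes, the lists and the sizes were chosen with earlier results of these data known. Named were the 6 genes, the targeted receptors, *Ms4a4b*, *Ms4a6b* and *Pcsk7*, up to 4 genes of each list past 1.5 times against both TGFβR-WT sets, and the 3 genes most like each member. Antisense and host genes, *Xist*, *Ddx3y* and the genes that part the sets were named after their values were seen, where the rule did not already name them. Alternatives were other TGFβR-WT cells, denominators, pooling, measures, filters and sizes. Coordinates are from GENCODE on GRCm38 and promoters from RefSeq on GRCm38.p6. Python 3.11.15, numpy 2.4.6, scipy 1.17.1, pandas 2.3.3, Biopython 1.88 and matplotlib 3.10.9 were used, and the code was first tested on data with known answers.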

Additional observations from a re-analysis of the deposited data

Results flagged for a closer look

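*Gem* and *Furin* did not keep 1 ratio of TGFβR-KO to TGFβR-WT across clusters, and both TGFβR-WT sets lay on the same side in the clusters compared. *Gem* was 10.3 times higher in Pre-tumorigenic, 1.21 times in GC-TFH and 0.666 times in Activated. *Furin* was 1.88 times higher in Pre-tumorigenic and 1.62 times in GC-TFH, and 0.832 times in TR-TFH. These differences between clusters were not tested, since TGFβR-KO is 1 sample, and the *Gem* ratios rest on 6 corrected UMIs of TGFβR-WT in Pre-tumorigenic, 7 in GC-TFH and 12 in Activated.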

How the results depend on the processing

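Of 115 recomputed values, 101 moved by less than their counting error or stayed within 1.5 times for counts, 14 moved further, and the 1 ratio that crossed 1 was that of *Gem* in TGFβR-CA, 1.06 without the 5% of cells with the most genes. Of 50 alternatives for the TGFβR-KO to TGFβR-WT ratio, 49 were at least 1.5. Without Tumorigenic and CTL cells, the ratio was 3.88 for *Gem* and 1.503 for *Furin*. Taken from shares of cells above 0 it was 4.36 and 1.46, and from expected shares at 2900 corrected UMIs per cell 4.60 and 1.501. With either TGFβR-WT set left out, the *Furin* ratio ran from 1.99 to 2.35 in TGFβR-KO and from 0.482 to 0.569 in TGFβR-CA, and the *Esm1* ratio was 2.32 without the smaller set. At the TGFβR-WT mix of clusters, an alternative chosen after seeing the data left out the smaller set and gave 1.08 for *Furin* and 1.96 for *Esm1*. The counts of members within clusters, also redone without the smaller set after seeing the data, fell from 2 to 1 in TR-TFH, by 1 in GC-TFH, Migratory and Pre-tumorigenic, and stayed at 2 in Cycling and Activated. Of the 18 genes most like a member, 12 were kept with a pseudocount of 0.5. Among genes above 0 in all sets, 2 members reached 1.5 times against both TGFβR-WT sets, since the other 4 are at 0 in the smaller set. With a set at 0 taken at its floor, 5 members reached a size of 2 times, where 1.42% of 7490 genes did. The share of Migratory cells with *Rap1gap2* differed by 1.48 percentage points between cells with and without *Esm1*, and by -4.17 points when at least 2 corrected UMIs of *Esm1* were asked for; the cause was not tested. No paired analysis was possible because TGFβR-WT cells are not tied to samples and the other conditions have 1 sample each. Depth limits *Ermn*, *Rap1gap2* and *Ms4a4c* most, with 13 or fewer corrected UMIs in the larger TGFβR-WT set.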
